A study of Sus scrofa with 61 samples.

Results

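The 26S proteasome and the enzymes that attach and remove ubiquitin were followed through development in livers of LP offspring, which were born to or carried by primiparous German Landrace sows fed a low protein diet during gestation, from 94 days post conception (dpc) to 1, 28 and 188 days post natum (dpn). Members were the genes whose symbol begins with PSMA to PSMG and a number (proteasome subunits, regulators and assembly chaperones), with UBE2 (ubiquitin-conjugating enzymes) or with USP and a number (ubiquitin-specific proteases). They number 80 of the 6765 genes with a symbol on the array: 14 subunits of the 20S core, 17 of the 19S cap (PSMC and PSMD symbols, which include the assembly chaperones PSMD5 and PSMD10), 4 immunoproteasome genes, 5 other regulators and chaperones, 24 UBE2 genes and 16 USP genes. For each gene the brightest probe-set over all arrays was used, out of 110 probe-sets in all, and 59 members had only 1. The symbol and gene ID of 77 members were found in the RefSeq table of the pig (assembly Sscrofa11.1). UBE2D3, USP28 and USP9X were not matched and keep the array's name.

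Transcripts were measured on 61 Affymetrix porcine arrays (GeneChip Porcine Genome Array), each with the liver RNA of 1 animal. There were 16 fetuses at 94 dpc, 14 newborn piglets at 1 dpn, 15 weaners at 28 dpn and 16 young adults (188 dpn). All animals shared the maternal low protein diet, and arrays of AP offspring (adequate protein diet) were not analysed here. Fetuses were taken by Caesarean section, whereas older animals came from a second experiment in which the sows farrowed, so experiment and stage cannot be told apart in period I (94 dpc to 1 dpn) or over the whole span. After birth, piglets that were kept were fostered by sows on the adequate diet and males were castrated. Pigs at 28 and 188 dpn were fasted overnight and no fast is described for piglets at 1 dpn, so feeding state and stage cannot be told apart in period II (1 dpn to 28 dpn), and fetuses, too, differ in this from pigs at 188 dpn. Period III runs from 28 dpn to 188 dpn, and the whole span sets 188 dpn against 94 dpc. At 94 dpc and 1 dpn only, sib pairs were chosen to differ in weight (a light and a heavy animal). This choice and stage thus cannot be told apart in period II or over the whole span. Its part in the spread among animals at these stages was not tested. Sib pairs lie within the stages and piglets of 1 litter were spread over the stages after birth, but the labels do not identify sibs, sex or mother. All animals were therefore treated as independent, and P-values measure the spread among these animals only.

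The proteasome is the protease complex that degrades most short-lived and damaged proteins of the cell. Its barrel-shaped 20S core carries the proteolytic sites on beta subunits, and the 19S cap recognises ubiquitin chains, unfolds the substrate with a ring of ATPases and feeds it into the core. Interferon and inflammatory signals replace the constitutive catalytic beta subunits with the inducible ones of the immunoproteasome and raise the activator PA28, which alters the peptides available for presentation on MHC class I. Ubiquitin is activated by an E1 enzyme, passed to an E2 enzyme (UBE2 genes) and transferred to substrates with the help of E3 ligases, while deubiquitinases such as the USP proteases take it off again. Some UBE2 and USP gene products serve ubiquitin-like proteins instead, among them NEDD8 and ISG15. In liver the system is known for the turnover of metabolic enzymes and of misfolded secretory proteins.

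The deposited values are linear signal intensities, which the authors scaled to a common trimmed mean on each array (500.127 to 500.229 after trimming 2% at each end). This scaling leaves the median of an array free, and the median of this array median was 167, 150.4, 118 and 102 from the fetal stage to 188 dpn. Over all 6765 genes the median log2 difference was -0.01, -0.12, -0.09 and -0.21 in periods I, II and III and over the whole span, and subtraction of array medians moved it to 0.13, 0.23, 0.07 and 0.44. The subtraction adds the same amount to every gene, 0.14, 0.35, 0.16 and 0.65 in these comparisons, while quantile normalization changes bright and dim genes differently. Liver identity was clear at every stage, with ALB, the gene of serum albumin, at a median signal of 59066, 84613, 54271 and 48246 from 94 dpc to 188 dpn. The 3' probe-set of beta-actin exceeded its 5' probe-set, which reflects how intact and fully labelled the RNA is, by 2.27 ± 0.37 (SD, n = 16), 1.78 ± 0.35 (SD, n = 14), 3.94 ± 0.43 (SD, n = 15) and 4.03 ± 0.44 (SD, n = 16) on the log2 scale at these stages on average. The same difference of GAPDH was 1.05 ± 0.29, 0.39 ± 0.27, 0.79 ± 0.13 and 0.64 ± 0.12. Both were lower at 1 dpn than at 94 dpc and moved with stage in later comparisons too, and their part in the results was not tested. The number of arrays limits the precision.

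Stages were compared with limma on log2 signals, later minus earlier stage, for probe-sets with an SD above 0.25 and a signal over the array median in 50% or more of the animals of either stage. A gene was called where both P and the Storey q over all probe-sets tested were no larger than 0.05. Because most probe-sets changed, q often lies below P, so a gene can have a q under the threshold and still not be called. Adjacent periods share the animals of the stage between them, so their results are not independent.

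In period I, 67 of the 80 members were tested, and 36 were called higher and 14 lower at 1 dpn. Over all genes tested, 33.9% were called higher and 35.4% lower. The higher calls lay mainly in the proteasome: 11 of 12 core subunits tested, 11 of 16 cap genes and all 4 immunoproteasome genes were higher, and the only lower call among the cap genes was PSMD10, an assembly chaperone. UBE2 genes split into 6 higher and 7 lower of 19 tested, and USP genes into 2 higher and 5 lower of 11. The median log2 difference over every member of a class, tested or not, was 0.54 for the core, 0.41 for the cap, 1.23 for the immunoproteasome, -0.10 for UBE2 genes and -0.15 for USP genes. The UBE2 median turned to the other side of 0 with array medians subtracted.

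In period II, 58 members were tested, and 17 were called higher and 29 lower at 28 dpn, against 33.2% higher and 39.1% lower over all genes. With array medians subtracted the split turned to 38 higher and 9 lower, against 54.6% and 19.3% over all genes. With quantile normalization it was 19 higher and 25 lower, against 38.2% and 33.9%. The cap fell in 7 of 11 genes tested and rose in 3, which became 3 lower and 7 higher with array medians subtracted. UBE2 genes were called lower 9 times and higher 4 times of 18 tested, which became 1 and 11 with array medians subtracted. Of the 5 other regulators and chaperones, 4 were called lower under all 3 scalings, with a median of -0.82.

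In period III, 57 members were tested, and 8 were called higher and 36 lower at 188 dpn, against 21.7% higher and 39% lower over all genes. With array medians subtracted, 14 were higher and 30 lower, against 34.9% and 22.8%, and with quantile normalization 7 and 34, against 27.5% and 31.8%. All 9 cap genes tested fell, as did 12 of 17 UBE2 genes and 3 of 4 immunoproteasome genes. In the core, 6 of 6 alpha subunits tested fell, while 2 of 3 beta subunits tested were called higher. With quantile normalization 6 alpha subunits were again lower and no beta subunit was called, and with array medians subtracted 4 alpha subunits were lower and 1 higher, with 2 beta subunits higher.

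Over the whole span, 68 members were tested, and 24 were called higher and 36 lower at 188 dpn, against 36.7% higher and 48% lower over all genes. With array medians subtracted, 47 were higher and 15 lower, against 60.6% and 24.9%, and with quantile normalization 27 and 34, against 47% and 38.4%. All 7 beta subunits of the core and all 4 immunoproteasome genes were called higher, whereas 16 of 20 UBE2 genes tested were lower. The UBE2 split became 10 higher and 6 lower with array medians subtracted, and 4 higher and 11 lower with quantile normalization. USP genes were called higher 3 times and lower 7 times of 13 tested, which became 9 and 4 with array medians subtracted and 8 and 6 with quantile normalization.

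**Figure D1:**
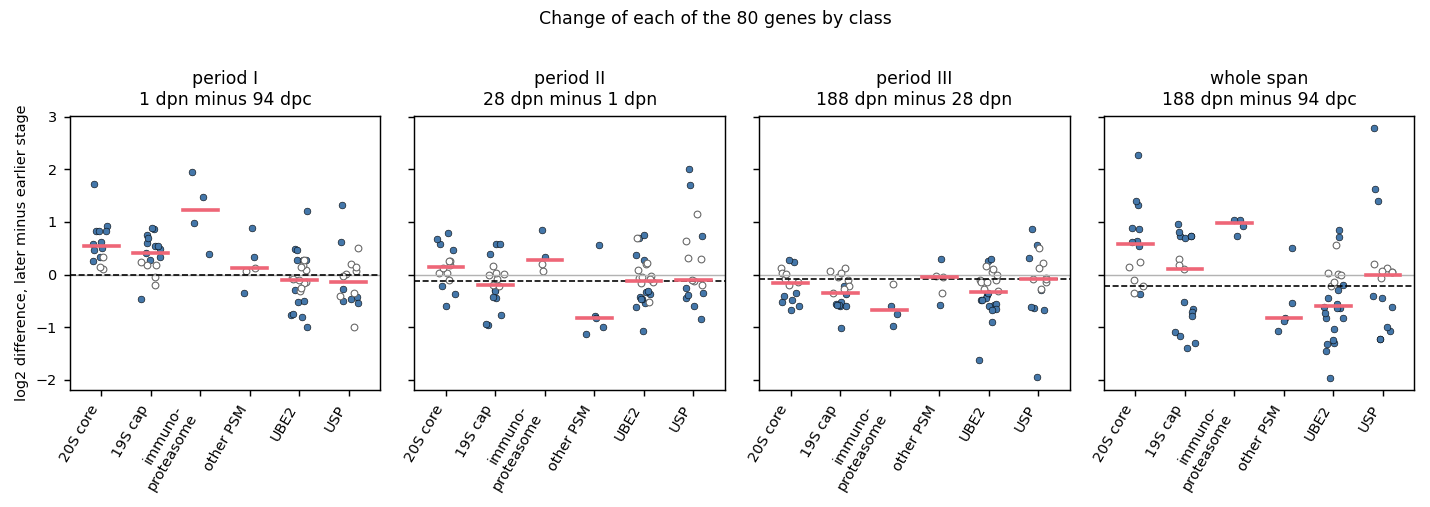
Log2 difference (vertical axis, later minus earlier stage) of each of the 80 genes by class in the 3 periods and over the whole span. Filled points were called, open points were tested and not called or not tested, red bars mark class medians and the dashed line is the median of all 6765 genes; other PSM stands for PSME3, PSME4, PSMF1, PSMG1 and PSMG3. The immunoproteasome lies highest in period I (median 1.23) and lowest in period III (median -0.67).

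With the authors' scaling, the stage of the highest mean differed between classes. No core subunit was highest at 94 dpc, and 10 of 14 were lowest there, as were 27.3% of all genes. Of the 17 cap genes, 7 were highest at 1 dpn, against 26.7% of all genes. The cap genes were lowest at 94 dpc (9 genes) or at 188 dpn (8 genes), against 27.3% and 38.4% of all genes. All 4 immunoproteasome genes were lowest at 94 dpc and highest at 28 dpn, the stage where 15% of all genes were highest. Of the 24 UBE2 genes, 12 were highest at 94 dpc and 15 lowest at 188 dpn, and over all genes 35.9% were highest at 94 dpc and 38.4% lowest at 188 dpn. This course of the UBE2 genes depends on the scaling. Subtraction of array medians adds 0.65 to every whole-span difference, and most whole-span UBE2 calls were then higher. Stages of the highest and lowest mean are given for the authors' scaling only. USP genes were spread over the stages, with 5, 4, 3 and 4 of 16 at their highest in turn from 94 dpc to 188 dpn.

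**Figure D2:**
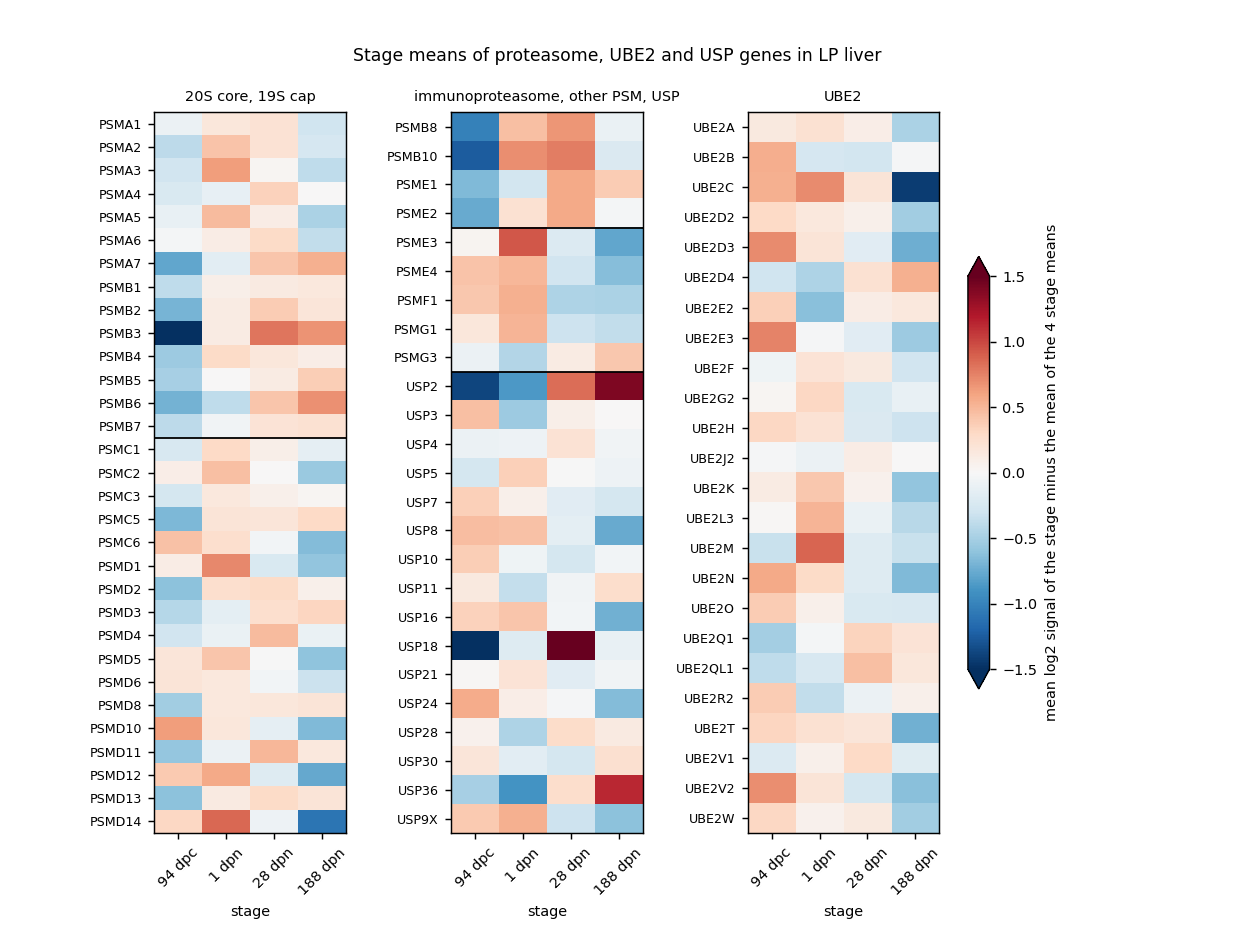
Mean log2 signal of each of the 80 genes at each stage (columns, 94 dpc to 188 dpn), relative to the mean of its 4 stage means, in colour from blue (lower) to red (higher); black lines separate classes. Signals have the authors' scaling. Core subunits are mostly blue at 94 dpc, the 4 immunoproteasome genes are darkest red at 28 dpn, and UBE2 genes are mostly red at 94 dpc and blue at 188 dpn.

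The immunoproteasome genes on the array were PSMB8 and PSMB10, inducible catalytic subunits of the core, and PSME1 and PSME2, the alpha and beta subunits of PA28. A further inducible subunit, PSMB9, had no probe-set with its symbol alone and was not analysed here. For each gene, signals are given as the lowest, the median and the highest animal of a stage. PSMB10 had signals of 381, 610.3 and 759.7 at 94 dpc, 1491, 2119.6 and 3097 at 1 dpn, 1199, 2368 and 3451 at 28 dpn and 669, 1079 and 1798 at 188 dpn. No piglet at 1 dpn overlapped with a fetus at 94 dpc, and 1 dpn and 28 dpn covered much the same range, above most of the animals at 188 dpn. The log2 difference was 1.94 (SE 0.11, q = 5.75e-16) in period I, the largest rise of any member in that period, then 0.07 (SE 0.13, q = 0.113), which was not called but was called higher at 0.42 with array medians subtracted, and -0.98 (SE 0.14, q = 2.43e-07) in period III. PSMB8 signals were 116, 296 and 403 at 94 dpc, 294, 834 and 1264 at 1 dpn, 498, 861 and 2309.7 at 28 dpn and 270.4, 461 and 1268 at 188 dpn. The stages overlapped, and the spread among animals was wide, with an SD of 0.66 on the log2 scale at 28 dpn and 0.65 at 188 dpn, where the median SD over all genes was 0.34 and 0.40. PSMB8 rose by 1.47 (SE 0.18, q = 3.86e-09) in period I, differed by 0.20 (SE 0.22, q = 0.0727) in period II, which was not called but was called higher at 0.55 with array medians subtracted, and changed by -0.75 (SE 0.22, q = 0.00184) in period III. Both genes stayed higher at 188 dpn than at 94 dpc, by 1.03 (SE 0.12, q = 2.34e-10) for PSMB10 and 0.92 (SE 0.19, q = 4.15e-06) for PSMB8.

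PSME1 and PSME2, whose products form the PA28 ring on the ends of the core, rose after birth in unequal steps. PSME2 signals were 1670.1, 1931 and 2521 at 94 dpc, 2997, 3996 and 4822 at 1 dpn, 3388, 4989 and 7329.5 at 28 dpn and 2332, 3168 and 5363 at 188 dpn. Its animals at 1 dpn lay above all fetuses, and it was the only PA28 gene without overlap in period I. The differences were 0.99 (SE 0.08, q = 8.98e-13) in period I, 0.34 (SE 0.11, q = 0.00122) in period II and -0.59 (SE 0.12, q = 4.18e-05) in period III, and with quantile normalization the call of period II was lost. PSME1 signals were 2419, 3298 and 3985 at 94 dpc, 3167, 3948 and 5759 at 1 dpn, 5704, 7295 and 9524 at 28 dpn and 5019, 6205 and 9495 at 188 dpn. Here the larger step came in period II, at 0.84 (SE 0.10, q = 1.09e-09) against 0.39 (SE 0.09, q = 6.23e-05) in period I, and the difference of -0.18 (SE 0.10, q = 0.0332) in period III was not called with the authors' scaling but was called in each of 3 alternatives, with quantile normalization, with all stages in 1 fit and with 9 arrays of outlying 3' to 5' difference left out. Over the whole span PSME1 rose by 1.04 (SE 0.09, q = 1.51e-13) with no overlap between 188 dpn and 94 dpc, and PSME2 by 0.73 (SE 0.10, q = 2.15e-09). Over all genes, 9.9% were higher without overlap in that comparison. The 2 genes are near neighbours in the RefSeq table, with EMC9 between them and IRF9, a factor of the interferon response, next to PSME2, and PSMB8 lies between TAP1 and TAP2, which carry peptides into the endoplasmic reticulum.

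**Figure D3:**
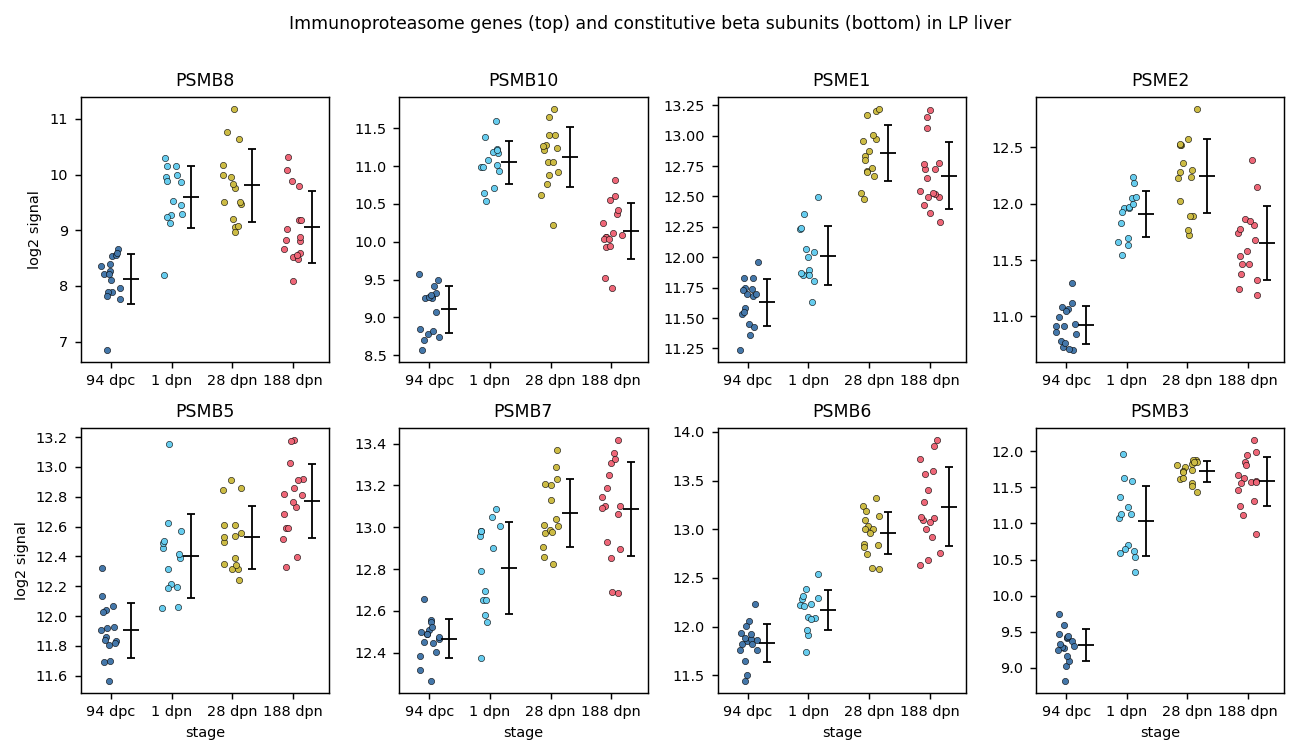
Log2 signal (vertical axis, scaled to each panel) of the immunoproteasome genes PSMB8, PSMB10, PSME1 and PSME2 (top) and of the constitutive beta subunits PSMB5, PSMB7, PSMB6 and PSMB3 (bottom) at the 4 stages. Each point is 1 animal and bars show mean ± SD (n = 16, 14, 15 and 16 from 94 dpc to 188 dpn); the top genes are lower at 188 dpn than at 28 dpn in their means, and the bottom genes stay near or above their level at 28 dpn.

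The inducible subunits take the place of constitutive ones, PSMB8 of PSMB5 (chymotrypsin-like site) and PSMB10 of PSMB7 (trypsin-like site), so the log2 ratio of each pair within an array was compared. This ratio does not depend on the scaling factor of an array, and it shows unequal change of both genes, not which of them changed. PSMB10 over PSMB7 averaged -1.76 ± 0.38 (SD, n = 14) at 1 dpn, against -3.36 ± 0.32 (SD, n = 16) at 94 dpc, a change of 1.61 (SE 0.13, adjusted permutation p = 8e-05) with no overlap between the stages. That p-value before adjustment, 2e-05, is the smallest that this two-sided test can give with 100000 resamples. The ratio changed by -0.19 (SE 0.13, adjusted permutation p = 0.214) in period II, by -1.0 (SE 0.12, adjusted permutation p = 8e-05) in period III and by 0.41 (SE 0.11, adjusted permutation p = 0.00176) over the whole span. PSMB8 over PSMB5 averaged -2.80 ± 0.68 (SD, n = 14) at 1 dpn, against -3.77 ± 0.46 (SD, n = 16) at 94 dpc, a change of 0.98 (SE 0.22, adjusted permutation p = 0.00016). It changed by 0.08 (SE 0.27, adjusted permutation p = 0.773) in period II and by -0.99 (SE 0.24, adjusted permutation p = 0.00036) in period III, and over the whole span by 0.06 (SE 0.18, adjusted permutation p = 0.773), with a difference called only with quantile normalization. Both ratios were thus high at 1 dpn and 28 dpn and lower on either side. The 8 tests were two-sided permutation tests, with p-values adjusted after Benjamini-Hochberg over the 8. Levels of different probe-sets cannot be set against each other, so a ratio below 0 does not give the share of either subunit.

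**Figure D4:**
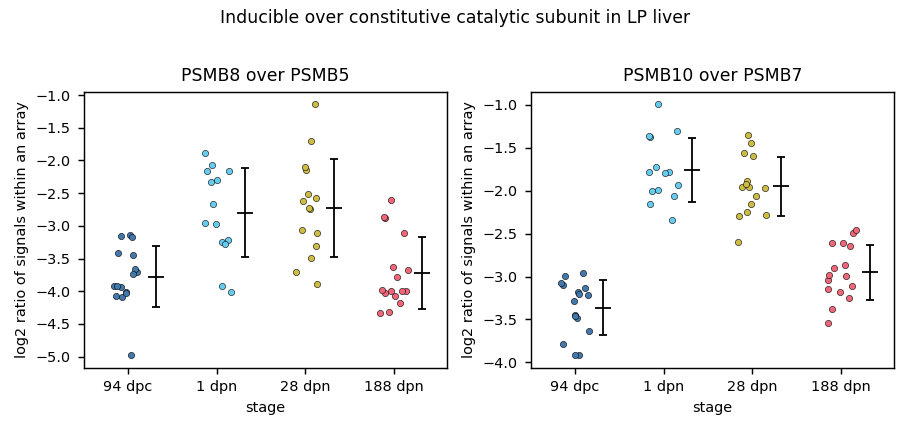
Log2 ratio of signals within an array (vertical axis) of PSMB8 over PSMB5 and of PSMB10 over PSMB7 at the 4 stages. Each point is 1 animal and bars show mean ± SD; both ratios are higher at 1 dpn and 28 dpn than at 94 dpc, and both are lower at 188 dpn than at 28 dpn.

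Some markers of other cells and genes of the interferon response changed in the same periods. Over all genes tested, 33.9% were called higher and 35.4% lower in period I. The shares were 33.2% and 39.1% in period II and 21.7% and 39% in period III. Interferon response genes tested numbered 15, 18 and 18 in turn, and T and NK cell genes 1, 8 and 9. Those tested were 9, 9 and 8 for macrophages, 10, 9 and 6 for hepatocytes and 8, 7 and 3 for granulocytes. In period I, 8 erythroid genes were tested. Of 19 interferon response genes measured, 10 were called higher and 4 lower in period I, 16 higher and 1 lower in period II and 16 lower in period III, and their summed signal had a stage median of 10686 (range 8671 to 14247) at 94 dpc, 12555 (range 7142 to 90409) at 1 dpn, 24172 (range 15125 to 91518) at 28 dpn and 11659.6 (range 9689 to 27113) at 188 dpn. Of 12 T and NK cell genes, none was called in period I, 7 were higher in period II, and 1 was higher and 4 lower in period III, with summed signals of 894 (range 598 to 1123) at 94 dpc, 816 (range 507 to 1131) at 1 dpn, 2953 (range 1423 to 5879) at 28 dpn and 2458 (range 1741 to 3417) at 188 dpn. GNLY, a granule protein of these cells, had a median signal of 1197 at 28 dpn, against 25.3 at 1 dpn, where it lay below the array median. Of 9 genes of macrophages and Kupffer cells, 4 were higher and 1 lower in period I, 7 higher in period II, and 1 higher and 7 lower in period III, with summed signals of 21038 (range 13292 to 25765) at 94 dpc, 28737 (range 22101 to 41439.9) at 1 dpn, 83926 (range 66326 to 98478) at 28 dpn and 77158 (range 63429 to 88379.9) at 188 dpn. Hepatocyte genes counted 6 higher and 1 lower of 12 in period I, 1 and 7 in period II and 1 lower in period III, with summed signals of 555291 (range 373727 to 788664) at 94 dpc, 672057 (range 500647 to 795302) at 1 dpn, 512730.0 (range 380210.0 to 672891) at 28 dpn and 457383 (range 374899 to 645288) at 188 dpn. Granulocyte genes counted 4 lower of 8 in period I, 7 lower in period II and none in period III. Erythroid genes fell in period I, 7 of 9, with summed signals of 14141 (range 3313 to 32691) at 94 dpc, 2442 (range 1351 to 4378) at 1 dpn, 3941 (range 2006 to 6961) at 28 dpn and 4284 (range 3074 to 8859) at 188 dpn. No gene of these lists was at 0 on any array. The calls of these lists are given with the authors' scaling only. Subtraction of array medians adds 0.35 to every difference in period II, where the median of the hepatocyte genes was -0.26, so their fall depends on the scaling. A summed signal gives most weight to the brightest genes of its list, so it need not follow the counts. FOLR2, of the macrophage list, had a median signal of 18235 at 28 dpn and 29337 at 188 dpn, while 7 genes of that list were called lower. Of the 12 T and NK cell genes, only 1 passed the filters in period I and the others could not be called, so the lack of calls says little about these cells. The part of the cell types in the changes of PSMB8, PSMB10 and PSME2 was not tested. In bulk liver, a change in the number of cells of a type and a change of RNA per cell cannot be told apart.

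Antigen processing genes other than the members were called higher 5 times and lower 3 times of 13 measured in period I, 10 times and 1 time in period II, and 1 time and 5 times in period III. Those tested numbered 11, 13 and 13 in turn, and the shares over all genes are those given with the cell markers. TAP1, a subunit of the peptide transporter, differed by 0.95 (SE 0.18, q = 5.39e-06), 1.48 (SE 0.20, q = 2.23e-08) and -1.08 (SE 0.18, q = 3.73e-06) in periods I, II and III. B2M, the light chain of MHC class I, went the other way in period I at -0.61 (SE 0.15, q = 0.000113) and was not called in periods II and III. TAPBP, which loads peptides onto class I, differed by 0.78 (SE 0.11, q = 1.17e-07), 0.28 (SE 0.13, q = 0.00994) and -0.50 (SE 0.09, q = 1.36e-05). TAP1 and TAPBP thus rose after birth and fell after 28 dpn, as PSMB8, PSMB10 and PSME2 did in periods I and III. Within a stage, PSMB8 and PSMB10 did not pass the test at 94 dpc (r = -0.18, rho = -0.20, adjusted permutation p = 0.569 and 0.48), 1 dpn (r = 0.24, rho = 0.24, adjusted permutation p = 0.509 and 0.459) or 28 dpn (r = -0.04, rho = 0.05, adjusted permutation p = 0.891 and 0.874), and at 188 dpn r was 0.53, rho = 0.51, adjusted permutation p = 0.069 and 0.0857. PSME1 and PSME2 were related at 94 dpc (r = 0.64, rho = 0.62, adjusted permutation p = 0.0213 and 0.0386), 28 dpn (r = 0.83, rho = 0.85, adjusted permutation p = 0.000608 and 0.0006) and 188 dpn (r = 0.88, rho = 0.88, adjusted permutation p = 0.00016 and 0.00032), and at 1 dpn r was 0.40, rho = 0.39, adjusted permutation p = 0.203 and 0.219. PSMB8 and its neighbour TAP1 had r between 0.21 (28 dpn) and 0.63 (1 dpn), with adjusted permutation p of 0.511 and 0.0349. These belong to 16 correlations over 4 pairs and 4 stages, tested by permutation with adjustment after Benjamini-Hochberg over the 16, with pairs chosen after their values were seen. Without the 2 animals farthest from the median on the first gene, r of PSME1 and PSME2 was 0.85, 0.82 and 0.88 at 94 dpc, 28 dpn and 188 dpn, and r of PSMB8 and TAP1 at 1 dpn was 0.30. For PSMB8 and PSMB10 it was -0.21, 0.60, -0.08 and 0.64 from 94 dpc to 188 dpn. The value at 1 dpn thus depends on which animals are included, and the values without 2 animals were not tested.

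Of the 7 constitutive beta subunits, PSMB3, a structural subunit of the ring, changed most. Its signals were 453, 637 and 859 at 94 dpc, 1287, 2202 and 3983 at 1 dpn, 2765, 3431 and 3779 at 28 dpn and 1857, 3077 and 4563 at 188 dpn. All animals from birth on lay above all fetuses. PSMB3 differed by 1.73 (SE 0.13, q = 3.64e-13) in period I, the largest rise of the core, by 0.68 (SE 0.13, q = 6.79e-06) in period II and by -0.14 (SE 0.10, q = 0.0721) in period III, which was not called, and over the whole span by 2.27 (SE 0.10, q = 1.49e-20). PSMB6, the caspase-like subunit, took its step later. Its signals were 2789, 3705 and 4821 at 94 dpc, 3419, 4752 and 5965 at 1 dpn, 6168, 8188 and 10231 at 28 dpn and 6367, 8891 and 15456 at 188 dpn, and animals at 28 dpn lay above all piglets at 1 dpn. PSMB6 rose by 0.79 (SE 0.09, q = 9.52e-10) in period II and by 0.33 (SE 0.08, q = 0.000171) in period I, with 0.27 (SE 0.12, q = 0.0172) in period III, and it rose by 1.40 (SE 0.11, q = 5.18e-14) over the whole span without overlap. The calls of periods I and III were lost with quantile normalization and with 9 arrays of outlying 3' to 5' difference left out, and that of period III also with Benjamini-Hochberg adjustment in place of q.

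PSMB5 signals were 3035, 3779 and 5118 at 94 dpc, 4242, 5409.8 and 9110.4 at 1 dpn, 4850.4, 5918 and 7719 at 28 dpn and 5151, 7075 and 9281 at 188 dpn. The gene was called higher in period I, at 0.50 (SE 0.09, q = 5.73e-06), and in period III, at 0.24 (SE 0.09, q = 0.00796), where the call was lost with quantile normalization. PSMB7 signals were 4927, 5721 and 6462 at 94 dpc, 5317, 7373 and 8701 at 1 dpn, 7255, 8247 and 10572 at 28 dpn and 6589, 8797 and 10941 at 188 dpn. It varied little, was not tested in periods I, II and III, and differed by 0.34, 0.26 and 0.02 there. Over the whole span no animal at 188 dpn overlapped with a fetus at 94 dpc for either gene, with 0.87 (SE 0.08, q = 3.06e-12) for PSMB5 and 0.62 (SE 0.07, q = 1.17e-10) for PSMB7. PSMB1, PSMB2 and PSMB4, the other structural subunits, rose over the whole span by 0.54 to 0.88. The bright beta subunits depend on the scaling: with quantile normalization the whole-span calls of PSMB1, PSMB4 and PSMB7 were lost, at 0.06, 0.18 and 0.14, and 4 of the 7 stayed called higher.

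The alpha subunits form the outer rings of the core and the gate. PSMA7 was the alpha subunit with the largest change over the whole span, and its signals were 6121, 6977 and 9108 at 94 dpc, 9094, 11171 and 13045 at 1 dpn, 12733, 15875 and 21309 at 28 dpn and 13669.8, 17292 and 26302 at 188 dpn. With the authors' scaling its 4 stage medians followed each other upward, with no overlap between 188 dpn and 94 dpc and little between 28 dpn and 1 dpn. It rose by 0.62 (SE 0.07, q = 9.88e-10) in period I and 0.58 (SE 0.08, q = 3.16e-08) in period II, where the call was lost with quantile normalization, and by 1.32 (SE 0.08, q = 7.34e-17) over the whole span. The difference in period III was 0.12 and not tested, and it was -0.005 with quantile normalization. PSMA3 had a different course, with signals of 2292, 3805 and 4544 at 94 dpc, 4300.2, 6969.8 and 11889 at 1 dpn, 3673, 4531 and 6214 at 28 dpn and 2438, 3424 and 4805 at 188 dpn. It was highest in piglets at 1 dpn, where animals also differed most, with an SD of 0.47. PSMA3 differed by 0.92 (SE 0.13, q = 1.2e-07), -0.60 (SE 0.13, q = 4.15e-05) and -0.40 (SE 0.09, q = 9.23e-05) in periods I, II and III, and the last 2 calls were lost with array medians subtracted. PSMA6 fell by 0.67 (SE 0.09, q = 8.09e-08) in period III, the largest fall of the core. Over the whole span 3 alpha subunits were tested, and PSMA7 was called higher and PSMA5 lower at -0.37 (SE 0.09, q = 5.5e-05). PSMA5 turned to 0.28, called higher, with array medians subtracted. With quantile normalization the alpha subunits counted 1 higher and 5 lower over the whole span. All 7 were higher once array medians were subtracted.

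In the 19S cap, some genes were lower and others higher at 188 dpn than at 94 dpc. PSMD14, the deubiquitinase of the lid that removes ubiquitin chains before degradation, had signals of 1001, 1461 and 1868 at 94 dpc, 1116, 2204 and 4114 at 1 dpn, 779.7, 1085 and 1595 at 28 dpn and 315, 537 and 779.7 at 188 dpn. Piglets at 1 dpn spanned the widest range, and the highest animal at 188 dpn lay just below the lowest at 28 dpn. PSMD14 rose by 0.55 (SE 0.16, q = 0.00095) in period I, and then differed by -0.93 (SE 0.17, q = 4.81e-06) and -1.02 (SE 0.11, q = 4.91e-09) in periods II and III and by -1.40 (SE 0.10, q = 4.11e-15) over the whole span. PSMD10, the assembly chaperone gankyrin, was called lower in each period, at -0.46, -0.31 and -0.53, and over the whole span, at -1.30 (SE 0.09, q = 1.4e-15) without overlap. The call of PSMD10 in period II was lost with quantile normalization and at 0.04 with array medians subtracted. PSMC6, an ATPase, fell by 0.60 (SE 0.14, q = 0.00019) in period III. PSMD12, a lid subunit, and PSMC6 differed over the whole span by -1.16 (SE 0.13, q = 3.86e-11) and -1.08 (SE 0.13, q = 1.97e-10). All 4 remained called lower over the whole span under all 3 scalings.

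Other cap subunits rose in period I and were still higher at 188 dpn than at 94 dpc. PSMC5, an ATPase, had signals of 1661, 1894 and 2097 at 94 dpc, 2416, 3479 and 4155 at 1 dpn, 2917, 3428 and 4141 at 28 dpn and 3123, 3640.3 and 4419.6 at 188 dpn, and PSMD2, a scaffold of the base that docks shuttle proteins, had signals of 882, 1471 and 1758 at 94 dpc, 2005, 2435 and 3497 at 1 dpn, 2118, 2575 and 2951 at 28 dpn and 1634, 2279 and 2759 at 188 dpn. Neither gene overlapped between 1 dpn and 94 dpc. PSMC5 rose by 0.86 (SE 0.07, q = 1.3e-12) and PSMD2 by 0.88 (SE 0.09, q = 2.81e-10) in period I, and neither was tested in periods II and III. In the whole-span comparison PSMC5, PSMD3 and PSMD13, the last 2 subunits of the lid, were higher without overlap, at 0.97 (SE 0.06, q = 8.65e-18), 0.74 (SE 0.08, q = 1.89e-11) and 0.80 (SE 0.09, q = 4.05e-11). PSMD1, the other scaffold of the base, rose by 0.61 (SE 0.12, q = 9.63e-06) in period I and then differed by -0.95 (SE 0.12, q = 1.41e-08) and -0.36 (SE 0.10, q = 0.000871), while PSMD2 stood at 0.03 and -0.21 in those periods and was not tested. PSMD4, a receptor for ubiquitin chains, was highest at 28 dpn, with 0.57 (SE 0.12, q = 1.57e-05) in period II and -0.58 (SE 0.09, q = 8.76e-07) in period III, without overlap in period III. Over the whole span 6 of the 16 cap genes tested were called higher and 8 lower. This is near the shares over all genes, 36.7% higher and 48% lower. The split was 9 to 4 once array medians were subtracted, against 60.6% higher and 24.9% lower over all genes.

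PSMD11, a lid subunit, had probe-sets that disagreed. The brightest gave 0.59 (SE 0.09, q = 1.6e-07) in period II and a second gave 0.53 (SE 0.12, q = 4.5e-05), while another, dim one gave -2.64 (SE 0.32, q = 4.56e-09), so the mean of the probe-sets turned negative. PSMF1, the proteasome inhibitor PI31, had 2 probe-sets at -0.99 (SE 0.13, q = 2.02e-08) and 1.04 (SE 0.12, q = 1.39e-09) in period II, and both genes disagreed in the same way over the whole span. Probe-sets called in both directions were also found for PSMC2 in period I and for UBE2H and USP4 in period II, out of 21 members with several probe-sets. In the counts these genes stand with their brightest probe-set.

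Of the other regulators, PSME3, the nuclear activator PA28 gamma, had signals of 441, 572 and 679.7 at 94 dpc, 661, 1036 and 1900.4 at 1 dpn, 418, 456 and 605 at 28 dpn and 242, 319 and 435 at 188 dpn. It was highest in piglets at 1 dpn, and no animal at 28 dpn overlapped with them. PSME3 differed by 0.89 (SE 0.10, q = 2.57e-09), -1.13 (SE 0.11, q = 3.59e-11) and -0.57 (SE 0.08, q = 8.53e-08) in periods I, II and III and by -0.82 (SE 0.07, q = 2.3e-13) over the whole span, where the call was lost with array medians subtracted at -0.17. The other PA28 genes, PSME1 and PSME2, were called higher in period II, and PSME3 lower. PSME4, the activator PA200, had signals of 249, 333 and 715 at 94 dpc, 200.2, 365 and 576 at 1 dpn, 108, 230.0 and 398 at 28 dpn and 57, 187 and 308 at 188 dpn. The stages overlapped, with the later 2 lower. It was called in period II, at -0.79 (SE 0.16, q = 1.98e-05), and over the whole span, at -1.06 (SE 0.18, q = 2.76e-07), and not in period I, at 0.07 (SE 0.17, q = 0.151), or period III, at -0.35 (SE 0.18, q = 0.031). The assembly chaperone PSMG1 fell by 0.82 (SE 0.10, q = 1.02e-08) in period II, and PSMG3, another chaperone, fell by 0.34 (SE 0.13, q = 0.00467) in period I, a call lost under both other scalings, and rose by 0.56 (SE 0.13, q = 4.93e-05) in period II and by 0.29 (SE 0.10, q = 0.00578) in period III.

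Among the UBE2 genes, UBE2C, the E2 of the anaphase-promoting complex that drives exit from mitosis, had the largest falls in period III and over the whole span. Its signals were 289, 641 and 1649 at 94 dpc, 367, 832 and 2058 at 1 dpn, 198, 543 and 1193 at 28 dpn and 62.2, 185 and 323 at 188 dpn. The 3 earlier stages overlapped widely, with an SD of 0.83, 0.69 and 0.79, and most animals at 188 dpn were lower. UBE2C was not called in period I, at 0.18 (SE 0.27, q = 0.119), or in period II, at -0.51 (SE 0.26, q = 0.0144). It differed by -1.62 (SE 0.24, q = 4.72e-07) in period III and by -1.96 (SE 0.24, q = 6.99e-10) over the whole span. UBE2T, the E2 of the Fanconi anaemia pathway of DNA repair, had signals of 233, 327 and 687 at 94 dpc, 144, 379.6 and 513 at 1 dpn, 169, 301 and 597 at 28 dpn and 121, 151 and 297 at 188 dpn. The first 3 stages were alike in their medians, and all stages overlapped. UBE2T fell by 0.90 (SE 0.17, q = 2.12e-05) in period III. Both were called lower under all 3 scalings in period III and over the whole span. Of 19 proliferation genes measured outside the members, 16, 16 and 15 were tested in periods I, II and III. They counted 5 higher in period I, 15 lower in period II and 15 lower in period III. Over all genes tested, those shares were 33.9%, 39.1% and 39%. RRM2, a ribonucleotide reductase subunit that lay below the array median at 188 dpn, was at -3.34 (SE 0.26, q = 7.36e-12) in period III. The summed signals of the 19 genes were 8857 (range 6561 to 20022) at 94 dpc, 16145 (range 10391 to 32962) at 1 dpn, 7419 (range 3955 to 19425) at 28 dpn and 3068 (range 2100.4 to 3784) at 188 dpn. The part of these genes in the fall of UBE2C and UBE2T was not tested.

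**Figure D5:**
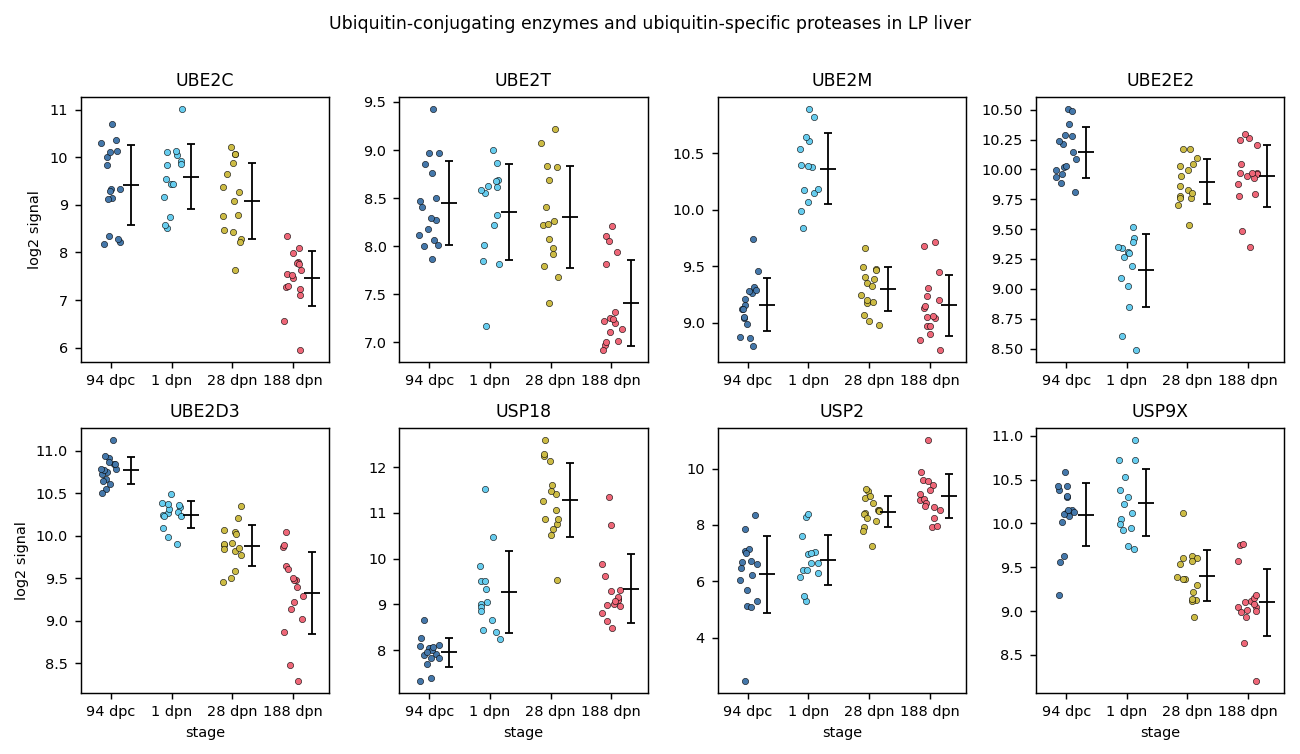
Log2 signal (vertical axis, scaled to each panel) of UBE2C, UBE2T, UBE2M, UBE2E2 (top), UBE2D3, USP18, USP2 and USP9X (bottom) at the 4 stages. Each point is 1 animal and bars show mean ± SD (n = 16, 14, 15 and 16 from 94 dpc to 188 dpn); UBE2M is high and UBE2E2 low at 1 dpn, and USP18 is highest at 28 dpn.

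UBE2M and UBE2F pass NEDD8, which activates cullin-RING ligases, and UBE2M was highest in newborn piglets. Its signals were 443, 564 and 853 at 94 dpc, 913, 1332 and 1900.0 at 1 dpn, 505, 642 and 811 at 28 dpn and 433, 547 and 837 at 188 dpn. No piglet at 1 dpn overlapped with a fetus or with a weaner at 28 dpn. UBE2M rose by 1.20 (SE 0.11, q = 5.03e-12) in period I, fell by 1.07 (SE 0.10, q = 4.11e-11) in period II and was not called over the whole span, at -0.01, where it was called higher with quantile normalization (0.34) and with array medians subtracted (0.64). UBE2F changed less, with 0.28 (SE 0.09, q = 0.00196) in period I. UBE2E2, a nuclear E2, moved the opposite way, with signals of 899.7, 1110.5 and 1452 at 94 dpc, 359.7, 622 and 732 at 1 dpn, 742, 930.4 and 1154 at 28 dpn and 654, 999 and 1258 at 188 dpn. Piglets at 1 dpn lay below all animals at 94 dpc and at 28 dpn, with -0.99 (SE 0.10, q = 1.34e-10) in period I and 0.75 (SE 0.10, q = 2.77e-08) in period II. Its paralogue UBE2E3 fell in period I by 0.77 (SE 0.08, q = 3.19e-10), also without overlap, and stood at -1.29 (SE 0.07, q = 5.33e-18) over the whole span. In period I, 4.08% of all genes were higher and 3% lower without overlap, and in period II 3.99% and 3.56%.

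The UBE2D enzymes work with many E3 ligases. UBE2D3 signals were 1451, 1758 and 2237 at 94 dpc, 955, 1239 and 1439 at 1 dpn, 705, 951 and 1304 at 28 dpn and 315, 694 and 1054 at 188 dpn. Its stage medians stepped downward with the authors' scaling, without overlap between 1 dpn and 94 dpc. It fell by 0.52 (SE 0.07, q = 4.46e-08) in period I and differed by -1.45 (SE 0.13, q = 2.96e-13) over the whole span, again without overlap. UBE2D2, a close paralogue, fell by 0.59 (SE 0.10, q = 3.2e-06) in period III, and the dim UBE2D4 differed in the other direction, with 0.31 (SE 0.11, q = 0.00497) in that period, a call lost with all stages in 1 fit. UBE2D4 lay below the array median at 94 dpc and 1 dpn in its stage mean. UBE2N, which builds lysine-63 chains with UBE2V1 or UBE2V2, had signals of 2657, 3279 and 4389.7 at 94 dpc, 1730.0, 2797 and 5005 at 1 dpn, 1428, 2003 and 2846 at 28 dpn and 1136, 1406 and 1714 at 188 dpn. Its median was lower at each later stage, without overlap between 188 dpn and 94 dpc. UBE2N differed by -0.47 (SE 0.12, q = 0.000239) and UBE2V2 by -0.46 (SE 0.12, q = 0.000171) in period II, where both calls were lost with array medians subtracted. UBE2N differed by -1.24 (SE 0.08, q = 3.89e-16) over the whole span and its cofactor UBE2V2 by -1.32 (SE 0.14, q = 1.68e-11), while the cofactor UBE2V1 differed by 0.02 and was not tested. All whole-span calls of UBE2C, UBE2D3, UBE2E3, UBE2N, UBE2T and UBE2V2 were kept with quantile normalization and with array medians subtracted, and those 6 were all the UBE2 genes called lower with array medians subtracted.

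UBE2B, a homologue of yeast RAD6 that ubiquitinates histone H2B, fell by 0.81 (SE 0.11, q = 2.79e-08) in period I and was called higher in period III at 0.26 (SE 0.11, q = 0.0128), where the call was lost with 9 arrays of outlying 3' to 5' difference left out. UBE2R2, an E2 of SCF ligases, fell by 0.75 (SE 0.13, q = 1.16e-06) in period I and rose by 0.29 (SE 0.12, q = 0.00699) in period II. UBE2L3, an E2 of HECT and RBR ligases, and UBE2G2, an E2 of endoplasmic reticulum quality control, rose in period I by 0.49 (SE 0.10, q = 1.68e-05) and 0.29 (SE 0.10, q = 0.00319) and fell in period II by 0.61 (SE 0.09, q = 4.97e-08) and 0.54 (SE 0.10, q = 3.02e-06). Both falls were lost with array medians subtracted, and the rise of UBE2L3 with the mean of its probe-sets. UBE2K, which builds lysine-48 chains, fell by 0.66 (SE 0.10, q = 5.12e-07) in period III. UBE2Q1 rose by 0.47 (SE 0.09, q = 6.27e-06) in period I and 0.37 (SE 0.09, q = 0.000147) in period II, and with UBE2D4 it was 1 of 2 UBE2 genes called higher over the whole span, at 0.71 (SE 0.08, q = 2.04e-10) and 0.84 (SE 0.14, q = 1.78e-07). UBE2D4 rose by 0.69 (SE 0.24, q = 0.00203) in period II, a call lost with signals below the array median raised to that median, and UBE2W fell by 0.67 (SE 0.21, q = 0.00237) in period III, which was not called on the average of its probe-sets. UBE2QL1 was dim at every stage and was not called in any comparison with the authors' scaling.

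Among the USP genes, USP18 changed most within a period. Its product removes ISG15, the ubiquitin-like protein induced by interferon, and damps interferon signalling. USP18 signals were 162, 253 and 406 at 94 dpc, 302, 524 and 2961 at 1 dpn, 743, 2436 and 6171 at 28 dpn and 358, 553 and 2615 at 188 dpn. The SD among fetuses was 0.32 on the log2 scale, and it was 0.89, 0.81 and 0.75 at the later stages. USP18 rose by 1.32 (SE 0.23, q = 1.56e-06) in period I and 2.01 (SE 0.30, q = 1.45e-07) in period II, and fell by 1.94 (SE 0.27, q = 1.73e-07) in period III, with 1.40 (SE 0.20, q = 8.28e-09) over the whole span. ISG15 moved with it, by 2.79 (SE 0.42, q = 1.8e-07), 2.56 (SE 0.52, q = 1.26e-05) and -2.30 (SE 0.41, q = 8.83e-06). Within stages the 2 genes were related at 1 dpn (r = 0.91, rho = 0.88, adjusted permutation p = 0.000213 and 0.00032) and 28 dpn (r = 0.93, rho = 0.91, adjusted permutation p = 0.00016 and 0.00032). At 94 dpc r was 0.53, rho = 0.47, adjusted permutation p = 0.0707 and 0.11. At 188 dpn Pearson's r was 0.91, rho = 0.54, adjusted permutation p = 0.000608 and 0.0719, and it was 0.61 without the 2 animals farthest from the median of USP18. At 1 dpn and 28 dpn it was 0.73 and 0.92 without them. The calls of USP18 held under all 3 scalings in each comparison.

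USP2, a protease of cyclin D1 and of clock proteins, had signals of 5.62, 94.1 and 327 at 94 dpc, 39.4, 100.2 and 333 at 1 dpn, 152, 363 and 625 at 28 dpn and 242, 479.7 and 2062 at 188 dpn. Its stage means at 94 dpc and 1 dpn lay below the array median, so the lower end of its range is not measured well. USP2 rose by 1.71 (SE 0.26, q = 2.38e-07) in period II and 0.56 (SE 0.23, q = 0.0128) in period III, where the call was lost with all stages in 1 fit, and by 2.78 (SE 0.37, q = 3.05e-09) over the whole span. With signals below the array median raised to that median, the whole-span rise was 1.56. USP36, a nucleolar protease, was as dim, and its rise of 1.63 (SE 0.32, q = 1.91e-06) over the whole span turned to -0.11 with signals below the array median raised to that median. In period III its difference was 0.88 (SE 0.26, q = 0.00165). USP28, which removes ubiquitin from MYC, fell by 0.53 (SE 0.12, q = 6.77e-05) in period I and rose by 0.74 (SE 0.13, q = 1.47e-06) in period II. USP5, which recycles unanchored chains, rose by 0.62 (SE 0.12, q = 6.79e-06) in period I and fell by 0.36 (SE 0.12, q = 0.00139) in period II, where the call was lost with quantile normalization and with array medians subtracted.

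Several USP proteases were lower in older pigs. USP9X, which stabilises many signalling proteins, had signals of 582, 1129 and 1540.4 at 94 dpc, 837, 1152 and 1981 at 1 dpn, 489, 662 and 1111 at 28 dpn and 296, 536 and 870.3 at 188 dpn. Most animals at 28 dpn and at 188 dpn lay below most at 94 dpc and 1 dpn. USP9X fell by 0.84 (SE 0.13, q = 2.21e-07) in period II and differed by -1.0 (SE 0.13, q = 1.99e-09) over the whole span. USP24 differed by -1.21 (SE 0.14, q = 2.68e-10), USP8, which acts on receptors at endosomes, by -1.22 (SE 0.14, q = 1.44e-10), and USP16, a histone H2A protease, by -1.07 (SE 0.14, q = 3.16e-09) over the whole span. These 4 were called lower under all 3 scalings. In period III, USP8 fell by 0.61 (SE 0.16, q = 0.000645), USP16 by 0.68 (SE 0.16, q = 0.000279), USP24 by 0.64 (SE 0.16, q = 0.000387) and USP9X by 0.30 (SE 0.12, q = 0.0124), and the call of USP9X was lost under both other scalings. In period II, USP8, USP16 and USP21 were called lower at -0.59 (SE 0.15, q = 0.000156), -0.45 (SE 0.15, q = 0.00183) and -0.38 (SE 0.12, q = 0.000787), all lost with array medians subtracted. USP24 was already lower at 1 dpn than at 94 dpc, by 0.46 (SE 0.12, q = 0.000223). USP7, which acts on MDM2 and p53, was called lower at -0.61 (SE 0.10, q = 1.22e-07) over the whole span but was at 0.04 and not called with array medians subtracted. USP10 fell by 0.43 (SE 0.08, q = 3.79e-06) in period I, and USP11 fell by 0.50 (SE 0.19, q = 0.00423), a call lost with quantile normalization and with array medians subtracted. USP11 rose by 0.32 (SE 0.10, q = 0.00246) in period III. USP3 and USP30 were dim at 3 or all 4 stages, and USP3 was called only over the whole span, where it lost the call under both other scalings.

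The rest of the pathway was read from lists of genes outside the members. All 5 E1 genes measured (ATG7, NAE1, SAE1, UBA2 and UBA3) were called lower over the whole span, against 48% of all genes tested. These 5 serve ubiquitin-like proteins, and no E1 of ubiquitin itself (UBA1 or UBA6) was measured. With array medians subtracted, 4 of the 5 lay below 0. Among them were UBA2, a subunit of the SUMO E1, at -3.09 (SE 0.16, q = 3.67e-19), and UBA3, a subunit of the NEDD8 E1, at -2.36 (SE 0.12, q = 3.89e-19). UBA2 signals were 1981, 2715 and 3495 at 94 dpc, 1333, 1678 and 2117 at 1 dpn, 374, 599 and 885 at 28 dpn and 110.3, 298 and 612 at 188 dpn, and those of UBA3 704, 1049 and 1417 at 94 dpc, 433, 745 and 961 at 1 dpn, 208, 292 and 463 at 28 dpn and 127, 188 and 314 at 188 dpn. No animal at 188 dpn overlapped with a fetus for either gene. Both were called lower in each period, at -0.50 (SE 0.12, q = 7.03e-05), -1.21 (SE 0.14, q = 1.04e-09) and -0.65 (SE 0.14, q = 9.3e-05) for UBA3, the partner of UBE2M. Of 2 ubiquitin genes measured, RPS27A was called lower in period I, at -0.56 (SE 0.09, q = 7.81e-07), and UBB was not tested in the 3 periods. Of 26 E3 ligase and cullin-RING genes, 18, 21, 12 and 22 were tested in periods I, II and III and over the whole span. In period I 4 were higher and 7 lower, with 7 and 8 in period II and 2 and 3 in period III. Over the whole span it was 7 and 13, where UBE3A fell most, at -2.30 (SE 0.16, q = 9.1e-16). These E3 counts are given with the authors' scaling only. The whole-span median of the 26 genes was -0.38, and subtraction of array medians adds 0.65 to every difference there. Of all genes tested, 33.9% were called higher and 35.4% lower in period I, and 33.2% and 39.1% in period II. The shares were 21.7% and 39% in period III and 36.7% and 48% over the whole span.

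Of 9 ubiquitin-like modifiers measured, 7 were tested over the whole span, and 6 were called higher and 1 lower, against 36.7% and 48% over all genes. UBD, an interferon-induced modifier that sends proteins to the proteasome, rose by 2.27 (SE 0.34, q = 2.03e-07) in period II and changed by -1.02 (SE 0.24, q = 0.00022) in period III. NEDD8 itself rose by 0.66 (SE 0.08, q = 8.27e-09) in period I and changed by -0.42 (SE 0.08, q = 9.01e-06) in period II, in the directions of UBE2M. Of 15 other deubiquitinases, 10, 11, 9 and 11 were tested in periods I, II and III and over the whole span. They counted 5 higher and 3 lower in period I, 4 and 5 in period II, 2 and 4 in period III, and 4 and 6 over the whole span. These counts, too, hold for the authors' scaling only. Their whole-span median was -0.21, where subtraction of array medians adds 0.65. JOSD2, which lay below the array median at 28 dpn, differed by -2.48 (SE 0.13, q = 4.8e-17) in period II. BRCC3, a lysine-63 protease, differed by -1.69 (SE 0.14, q = 8.85e-14) over the whole span. SQSTM1, the autophagy receptor p62 that binds ubiquitin chains, led the 9 genes of p97 and shuttle factors, with 1.15 (SE 0.12, q = 1.93e-10) in period II and 2.31 (SE 0.13, q = 1.89e-18) over the whole span. SEM1, a small subunit of the lid outside the PSM symbols, rose by 0.68 (SE 0.07, q = 7.91e-11) in period I and changed by -0.64 (SE 0.07, q = 5.5e-09) in period III, as most of the cap did in both periods. Of the 6 genes for assembly and control measured, 5 were tested in each period and 4 over the whole span. They counted 2 higher and 1 lower in period I, 3 and 2 in period II, 2 lower in period III, and 2 higher and 1 lower over the whole span. The shares over all genes are those given with the E3 ligases.

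Spread among animals of a stage was small for the constitutive proteasome, whose core genes lay above the array median. Some bright genes outside the members had small SDs too, such as COPS6 at 0.11, 0.18, 0.14 and 0.17 from 94 dpc to 188 dpn. The small spread is thus not particular to the proteasome, and genes of like signal were not compared. The median SD of the core was 0.19, 0.28, 0.18 and 0.23 on the log2 scale from 94 dpc to 188 dpn, against a median over all genes of 0.34, 0.41, 0.34 and 0.40. UBE2 genes had medians of 0.24, 0.29, 0.22 and 0.28 and USP genes of 0.31, 0.39, 0.34 and 0.42 at the same stages. Without overlap between stages, 7 members were higher and 3 lower in period I, 2 and 3 in period II, none and 2 in period III, and 10 and 7 over the whole span, and the 2 of period III were PSMD4 and PSMD14. Over all genes 4.08% were higher and 3% lower without overlap in period I, and 3.99% and 3.56% in period II. The shares were 0.503% and 0.724% in period III, and 9.9% and 12.3% over the whole span. The members not tested numbered 13, 22, 23 and 12 in these comparisons. Without any filter, 38 of 80 were higher and 15 lower in period I, against 27.5% and 28.4% of all genes. They were 24 and 31 in period II, against 25.3% and 34.3%, 9 and 40 in period III, against 15.2% and 25.8%, and 26 and 39 over the whole span, against 29.9% and 43.5%.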

How the data were processed

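Liver RNA of 61 LP offspring was hybridised to Affymetrix GeneChip Porcine Genome Arrays, 1 animal per array. The deposited values are signal intensities per probe-set, which the authors scaled to a common trimmed mean on each array. GCOS 1.1.1 is named in the processing notes of the submitters. The GC-RMA values and detection calls that the methods describe were not used here. Of 24123 probe-sets, 124 controls were left out, 10069 carried 1 gene symbol, 198 several and 13732 none in the platform annotation.

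Intensities were log2 transformed without a pseudocount. Groups came from the stage in the labels. Each comparison was fitted in limma 3.58.1 (R 4.3.3) with stage as the only term, over the arrays of the 2 stages compared. Probe-sets above the array median in 50% of the animals of either stage and with an SD above 0.25 were tested, two-sided, and called where P and the Storey q over them were no larger than 0.05. On simulated data, 200 of the brighter probe-sets were changed, with 9245 to 9847 probe-sets tested and independent noise. A log2 change of 1 was called in 99, 97, 95 and 98% of cases in periods I, II and III and over the whole span. For a change of 0.5 this was 59, 54, 66 and 70%. In the data most probe-sets tested were called, so the q-values behave differently and these rates do not give the sensitivity here. They do not cover dim members or sibs. Array medians were subtracted, quantile normalization applied, filters changed or dropped, Benjamini-Hochberg adjustment used, all 4 stages put in 1 fit, a pseudocount of 16 added, signals floored at the array median, probe-sets averaged, and the 9 arrays left out whose 3' to 5' difference of beta-actin, GAPDH or EF1A lay over 3 scaled median absolute deviations from their stage median. Ratios and correlations were tested by permutation with 100000 resamples in SciPy 1.17.1.

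The members and lists were chosen with earlier results of these data known. Named were the catalytic subunits, PSME1 to PSME4, and, per comparison, the 5 called members with the largest rise and fall among PSM, UBE2 and USP genes, members with disagreeing probe-sets and the leading called gene of other lists. Other members named with values, the USP18, PSME1, PSMB8 and PSMB10 correlations, TAPBP, B2M, UBA3, UBD, NEDD8, RPS27A and UBB were chosen after their values were seen.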

Additional observations from a re-analysis of the deposited data

How the results depend on the processing

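No paired analysis was possible because the stages hold different animals, share no replicate numbers in the labels, and littermates across stages are not identified. The number of arrays and, for dim members, the low signal limit what can be called. With array medians subtracted, the members called were 38 higher and 9 lower in period II, 14 higher in period III, and 47 higher and 15 lower over the whole span, since this scaling adds a constant to every difference. Of the other 91 counts of members called under an alternative, all lay within 1.5 times the main count. Class medians also moved with array medians subtracted. In period I the UBE2 median was 0.0481. In period II the medians were 0.50 for the core, 0.15 for the cap, 0.62 for the immunoproteasome, -0.47 for other regulators and chaperones, 0.24 for UBE2 and 0.24 for USP genes. In period III they were -0.00987 for the core, -0.18 for the cap and 0.0762 for USP genes. Over the whole span they were 1.23 for the core, 0.77 for the cap, 1.63 for the immunoproteasome, -0.17 for other regulators and chaperones, 0.0609 for UBE2 and 0.64 for USP genes. With quantile normalization the USP median was 0.16 in period II, and over the whole span the medians were 0.10 for the core, -0.39 for other regulators and chaperones, -0.24 for UBE2 and 0.39 for USP genes, and PSMB8 over PSMB5 changed by 0.90 and passed the threshold. With the mean of probe-sets the UBE2 median was -0.29 in period II, and over the whole span the medians were -0.39 for the cap, -0.53 for other regulators and chaperones and -0.25 for USP genes. With signals floored at the array median the whole-span USP median was -0.26. Among members named by rule, the sign turned for PSMD11 (-0.51) and PSMF1 (0.0231) in period II with the mean of probe-sets, for USP36 (-0.11) over the whole span with the floor, and for USP7 (0.0391) over the whole span with array medians subtracted; apart from the construction of each alternative, the cause was not tested. Over all called members, the sign turned for 6 in period II and 13 over the whole span with array medians subtracted, PSMA5 among them, and over the whole span for 3 with quantile normalization (UBE2L3, UBE2R2 and USP3) and 2 with the mean of probe-sets (PSMD11 and PSMF1). Of 121 results on named members, 13 lost and 5 gained the call with array medians subtracted, 10 lost and 1 gained it with quantile normalization, and none changed with the pseudocount. The fit without any filter was chosen after seeing the data.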

Other observations

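Among the pathway genes outside the members, DERL1, a channel component of endoplasmic reticulum degradation, rose by 1.34 (SE 0.11, q = 4.1e-13) in period I. FBXO32, the muscle atrophy F-box ligase, differed by -1.60 (SE 0.26, q = 7.5e-07) in period I, and FBXW7, the F-box protein that targets cyclin E and MYC, by -1.77 (SE 0.13, q = 1.45e-13) in period II. CDC23, a subunit of the anaphase-promoting complex that works with UBE2C, differed by -1.10 (SE 0.12, q = 2.85e-09) in period III. STAMBP, a deubiquitinase of endosomes, differed by -1.15 (SE 0.17, q = 1.03e-07) in period I. Of the genes of class I and class II presentation, PDIA3, a chaperone of the peptide-loading complex, differed by 1.31 (SE 0.09, q = 2.12e-14) in period I and -1.22 (SE 0.11, q = 4.71e-11) in period III. SLA-DRA, a class II chain, rose by 2.16 (SE 0.22, q = 8.92e-11) in period II, and SLA-3, a class I heavy chain, by 2.71 (SE 0.15, q = 2.29e-18) over the whole span, a locus whose probe-sets may share sequence with other class I genes. The stage means of FBXO32 and STAMBP at 1 dpn and of FBXW7 at 28 dpn lay below the array median. All are values of limma with Storey q, later minus earlier stage.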
